A study of Mus musculus with 8 samples.

Results

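The genes described here are the main storage and transport genes of cellular iron: Trf (transferrin), Tfrc (transferrin receptor), Slc11a2 (the ferrous iron importer DMT1), Fth1 and Ftl1 (the heavy and light chains of ferritin) and Slc40a1 (the iron exporter ferroportin). They were chosen by name, and all 6 were found among the 16999 genes counted in both genotypes. Their levels were taken in 3 classes of brain cells from aged mice. The first class was 15604 oligodendrocytes in the 8 clusters that the deposited annotation assigns (Oligo1a, Oligo1b, Oligo1c, Oligo2a, Oligo2b, Oligo2c, age-related oligodendrocytes or ARO, and interferon-responsive oligodendrocytes or IRO). The second was 7421 microglia of the Rag1-/- mice in 5 deposited clusters (Homeostatic1, Homeostatic2, Activated, white matter-associated microglia or WAM, and interferon-responsive microglia or IRM). The third was 363 cells chosen here as border macrophages because they held at least 5 unique molecular identifiers (UMIs, 1 per captured mRNA molecule) of Mrc1, Pf4 and Ms4a7 together. Of these 363 cells, 29 held exactly 5 such UMIs, while 31 cells with exactly 4 were left out. The deposited tables listed 29631 cells in all, and the oligodendrocyte annotation held 222 further cells, all of Rag1-/- libraries.

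Single cells were profiled in 8 libraries of male mice, all 24 months old. There were 2 wild-type gray matter, 2 wild-type white matter, 1 Rag1-/- gray matter and 3 Rag1-/- white matter libraries. Gray matter was frontal (labelled prefrontal) cortex, and white matter was pooled from optic tract, medial lemniscus and corpus callosum. Cells were dissociated in the presence of the transcription inhibitor actinomycin D and sorted only as live cells. The wild-type mice carry the strain label C57BL/6 and the Rag1-/- mice, which lack mature T and B cells, the label NOD.129S7(B6)-Rag-1tm1Mom/J, although the study's own table names a C57BL6/J background. Genotype therefore coincided with the strain label, the experiment and the software version used for counting, and these cannot be told apart. Wild-type gray and white matter libraries with the same number came from the same pool of mice, as did Rag1-/- gray matter 1 and Rag1-/- white matter 1, while Rag1-/- white matter 2 and 3 came from 1 mouse each. The labels divide each genotype into Batch 1 and Batch 2. Each wild-type batch held 1 library of either tissue, but in Rag1-/- mice Batch 1 held gray matter 1 and white matter 1, and Batch 2 held white matter 2 and 3, which were counted with another software version. Of the Rag1-/- tissue comparisons, therefore, only gray matter 1 against white matter 1 lies within a batch, and values of that pair have no replicate. The 2 libraries of a wild-type group were separate pools of different batches. The p-values below therefore rest on a spread in which pools or mice and batches are mixed. Each fit shares one such spread among its groups, with Rag1-/- white matter of both batches in it. The main fit does not pair libraries of the same pool.

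Iron reaches most cells bound to transferrin, which the transferrin receptor carries into endosomes, where DMT1 moves the reduced iron into the cytosol. Iron that is not used is stored inside ferritin, a shell of heavy chains, which oxidize iron, and light chains, which help to form the mineral core, and ferroportin exports iron from the cell. Oligodendrocytes are known as the iron-rich cells of the brain and as a major source of its transferrin, whereas macrophages store iron and release it through ferroportin. Iron regulatory proteins bind hairpins called iron-responsive elements in mRNAs when cytosolic iron is low, which blocks translation of ferritin and ferroportin and stabilizes the transferrin receptor mRNA. That control acts on translation and on mRNA decay, and only mRNA was counted here.

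Sequences that match a pattern of iron-responsive elements are shown first. The search found them in the ferritin chains, the receptor and the exporter. On mouse build GRCm38 (mm10, GENCODE annotation) Trf lies at chr9:103204001-103230444 (minus strand), Fth1 at chr19:9980598-9985098 (plus), Ftl1 at chr7:45457944-45459884 (minus), Tfrc at chr16:32608920-32632794 (plus), Slc40a1 at chr1:45908068-45926523 (minus) and Slc11a2 at chr15:100387898-100425072 (minus). The untranslated regions (UTRs) of the 6 genes were searched on the transcript strand for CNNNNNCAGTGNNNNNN, a bulged C, 5 stem bases, the loop CAGTGN and 5 bases able to pair back to the stem, with G-T pairs allowed. Fth1, Ftl1 and Slc40a1 held 1 match each in the 5' UTR and Tfrc held 4 in the 3' UTR. In these sequences, read 5' to 3', the capitals mark the 6 loop bases.
Fth1, 5' UTR, chr19:9982732-9982760, plus strand: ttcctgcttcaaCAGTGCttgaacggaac
Ftl1, 5' UTR, chr7:45459779-45459807, minus strand: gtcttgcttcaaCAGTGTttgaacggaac
Slc40a1, 5' UTR, chr1:45925465-45925493, minus strand: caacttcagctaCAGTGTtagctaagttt
Tfrc, 3' UTR, chr16:32631219-32631247, plus strand: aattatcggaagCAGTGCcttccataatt
Tfrc, 3' UTR, chr16:32631598-32631626, plus strand: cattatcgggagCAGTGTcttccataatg
Tfrc, 3' UTR, chr16:32631663-32631691, plus strand: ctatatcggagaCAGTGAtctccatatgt
Tfrc, 3' UTR, chr16:32631710-32631738, plus strand: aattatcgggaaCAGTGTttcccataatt
The 5 bases before and the 5 bases after the loop are the same in the elements of both ferritin chains. Such a match was found in the 5' UTR of 31 of 20899 protein-coding genes (0.148%) and in the 3' UTR of 129 of 21028 (0.613%). These letters were not in the UTRs of Trf or Slc11a2, which says nothing about their regulation. All 5 stem bases had to pair, so an element with an unpaired stem base or another loop would be missed. The numbers of matches are therefore not totals of the elements in a gene. A match is a description of the sequence, not a site shown to act in these cells.

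Levels are given as CPM, the UMIs of a gene per 1000000 UMIs of the named cells of that library. Each captured molecule counts once whatever its length, but capture was not calibrated between genes. The libraries held 4554278 to 57127865 UMIs over all cells, and the sums used here were 2735825 to 43816134 UMIs per library for oligodendrocytes, 4812759 to 22160949 for microglia and 59420 to 824351 for border macrophages. Any 2 libraries of a genotype shared at most 15 cell barcodes. Rag1 UMIs were more frequent in the Rag1-/- libraries (1.46 to 2.25 CPM over all cells) than in the wild-type libraries (0 to 0.424 CPM). The counted tags lie at the 3' end of the gene, so they do not check the deletion. Trac, the T cell receptor alpha constant gene, was at 3.07 to 27.8 CPM in the wild-type libraries and 0.0572 to 0.551 CPM in the Rag1-/- libraries. In oligodendrocytes all 8 oligodendrocyte markers, among them Mbp, Mobp and Mog, were detected in each group, with a summed level of 47422 to 56302 CPM, and the 8 microglia markers summed to 167 to 511 CPM.

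The first comparison asked whether oligodendrocytes of white matter differ from those of gray matter in their iron genes. Transferrin mRNA was higher in white matter of wild-type mice. The differences of both ferritin chains, the receptor and DMT1 did not pass the test. The plot of the 6 genes by library shows these levels.

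**Figure D1:**
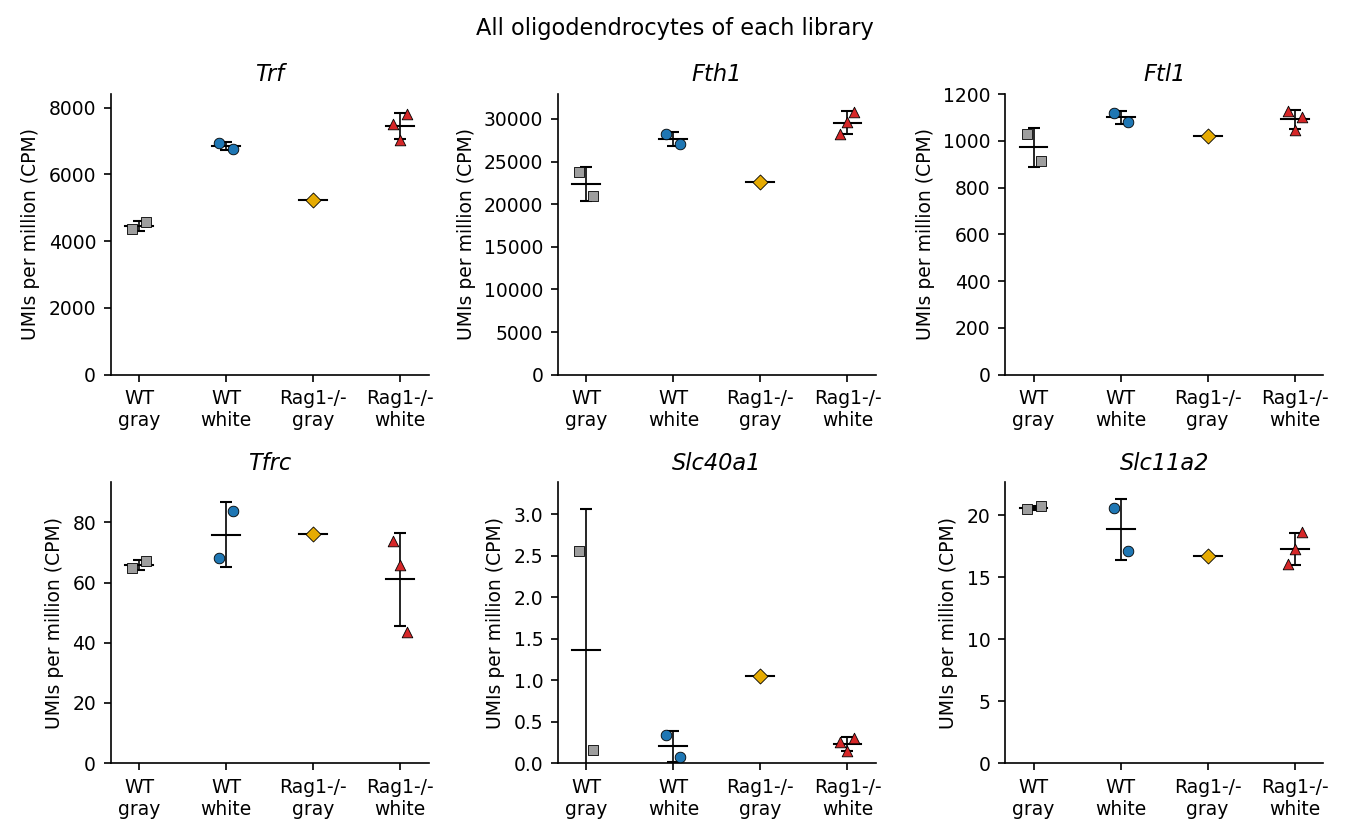
Level of each of the 6 iron genes in all oligodendrocytes of a library, in CPM on the y axis (each panel with its own scale), by genotype and tissue on the x axis; points are libraries, lines are group means and bars are SDs. For Trf the 2 wild-type white matter libraries (6936 and 6765 CPM) lie above the 2 gray matter libraries (4354 and 4560 CPM), and the 3 Rag1-/- white matter libraries (7036 to 7816 CPM) lie above the Rag1-/- gray matter library (5235 CPM).

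Trf stood at 4354 and 4560 CPM in the wild-type gray matter libraries and at 6936 and 6765 CPM in the wild-type white matter libraries. Both white matter libraries lay above both gray matter libraries, and the gap was present within each pool of mice. The log2 fold change was 0.64 with a standard error of 0.10 (1.55-fold, 95% interval 1.35 to 1.78, adjusted p = 0.0249 by edgeR's quasi-likelihood test with Benjamini-Hochberg adjustment over 13067 genes). Trf was 1 of the 131 genes called in this comparison, which are 1.00% of the genes tested, and it was the only member of the 6 called. With the pool of mice as a block edgeR called 8.02% of the genes, Trf among them with an adjusted p of 1.5e-05. The call was lost when any 1 of the 4 wild-type libraries was left out (adjusted p 0.14 to 0.22), with log2 fold changes of 0.58 to 0.70.

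In the Rag1-/- mice Trf was at 5235 CPM in the gray matter library and at 7497, 7036 and 7816 CPM in the white matter libraries. All 3 white matter libraries were higher, including the one from the same pool as the gray matter library (7497 CPM). The log2 fold change of 0.52 (SE 0.12) did not pass edgeR's test (adjusted p = 0.133), which takes the spread of the other groups for the single gray matter library. By DESeq2 its adjusted p was 0.0134, with 1.59% of the genes called. With the pool as a block it was 0.0123 by edgeR, with 3.63% called, but that estimate rests on gray matter 1 and white matter 1 alone, 1 library of each tissue with the spread of the other libraries, and has no replicate. None of the 6 members was called in this comparison by edgeR without the block, where 57 genes (0.436% of those tested) were called.

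Fth1, the ferritin chain that oxidizes iron, was the most abundant of the 6 mRNAs in CPM. It stood at 23812 and 20987 CPM in wild-type gray matter, 28277 and 27097 CPM in wild-type white matter, 22647 CPM in Rag1-/- gray matter and 28192, 29611 and 30862 CPM in Rag1-/- white matter. The 5 white matter libraries all lay above the 3 gray matter libraries. The log2 fold change was 0.32 (SE 0.10) in wild-type mice with an adjusted p of 0.290 by edgeR, and 0.40 (SE 0.12) with an adjusted p of 0.297 in Rag1-/- mice. With the pool as a block the wild-type difference was called (adjusted p = 0.0135), and the Rag1-/- difference was not (adjusted p = 0.203).

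Ftl1, the light chain, was at 1030 and 914 CPM in wild-type gray matter, 1120 and 1081 CPM in wild-type white matter, 1022 CPM in Rag1-/- gray matter and 1127, 1047 and 1103 CPM in Rag1-/- white matter. The white matter libraries were again above the gray matter libraries of their genotype, but the gap was small, with log2 fold changes of 0.20 (SE 0.10) in wild-type and 0.11 (SE 0.11) in Rag1-/- mice (adjusted p = 0.586 and 0.790 by edgeR). The 95% intervals of these ratios reach from 1.01 to 1.31 and from 0.93 to 1.26.

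Tfrc, through which transferrin-bound iron enters, was at 64.7 and 67.0 CPM in wild-type gray matter and at 68.2 and 83.6 CPM in wild-type white matter. In Rag1-/- mice the gray matter library had 76.0 CPM and the white matter libraries 73.7, 65.7 and 43.7 CPM. The receptor was thus slightly higher in white matter of one genotype and lower in the other, with log2 fold changes of 0.22 (SE 0.22) and -0.31 (SE 0.25), and neither passed the test (adjusted p = 0.873 and 0.724 by edgeR). Rag1-/- white matter 3 was the lowest of the 8 libraries, and it was also the lowest of the 5 white matter libraries in each of the 8 clusters.

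Slc11a2, which moves iron out of the endosome, stayed between 16.03 and 20.72 CPM in all 8 libraries. The log2 fold change between tissues was -0.14 (SE 0.16) in wild-type and 0.06 (SE 0.18) in Rag1-/- mice (adjusted p = 0.902 and 0.931 by edgeR). Slc40a1, the exporter, was close to absent from oligodendrocytes, with 7 and 2 UMIs in wild-type gray matter, 2 and 3 in wild-type white matter, 10 in Rag1-/- gray matter and 7, 3 and 12 in Rag1-/- white matter. Its level was 0.0685 to 2.56 CPM. Since 3 UMIs were taken as the lowest count that can be read, no fold change is given for it. The 8 microglia markers, at 167 to 511 CPM in the same sums, were far above it, and the source of the few Slc40a1 UMIs was not tested.

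The next question was whether mice without T and B cells differ in white matter. No member was called between Rag1-/- and wild-type white matter, where 119 genes (0.911%) were called. Trf was 1.13-fold higher in Rag1-/- mice (95% interval 0.99 to 1.28), Fth1 1.11-fold (0.97 to 1.26) and Ftl1 1.03-fold (0.91 to 1.16), with adjusted p-values of 0.697, 0.756 and 0.968 by edgeR. Tfrc had a ratio of 0.83 (0.63 to 1.08) and Slc11a2 of 0.96 (0.80 to 1.16), with adjusted p-values of 0.777 and 0.970 by edgeR. The 3 Rag1-/- libraries of Trf (7036 to 7816 CPM) lay just above the 2 wild-type libraries (6765 and 6936 CPM), whereas those of Ftl1 (1047 to 1127 CPM) and Slc11a2 (16.03 to 18.63 CPM) overlapped them.

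The difference between the tissue effects of the genotypes was tested as an interaction. By edgeR 0 of 13067 genes were called (0.00%), 236 had an unadjusted p under 0.05, and DESeq2 called 3. The tissue effect of Trf in Rag1-/- mice was smaller by 0.11 on the log2 scale (SE 0.15), that of Fth1 was larger by 0.07 (SE 0.16), and that of Tfrc differed by -0.53 (SE 0.33). Each had an adjusted p of 1 by edgeR.

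Markers of other cells moved with tissue in these oligodendrocytes. Astrocyte markers summed to 137 to 175 CPM in the 3 gray matter libraries and 98.1 to 126 CPM in the 5 white matter libraries. Hemoglobin and other erythrocyte genes summed to 613 CPM in the Rag1-/- gray matter library, 43.8 to 87.3 CPM in the Rag1-/- white matter libraries, 0 and 1321 CPM in the wild-type gray matter libraries and at most 0.251 CPM in the wild-type white matter libraries. Their part in the differences of the iron genes was not tested.

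The clusters differed in their levels of Trf and Fth1. Since the clusters were drawn from the same cells with these genes among the others, the differences between clusters are a description and were not tested. Over the 5 white matter libraries Trf was highest in Oligo2c, with 12078 ± 512 CPM (SD, n = 5). It was followed by ARO (8643 ± 841), Oligo2a (8625 ± 788), IRO (7158 ± 709) and Oligo2b (7111 ± 544), and was lower in Oligo1b (5561 ± 787), Oligo1c (5372 ± 319) and Oligo1a (4518 ± 509). The libraries of Oligo2c (11238 to 12584 CPM) did not overlap those of the next cluster, and those of Oligo2b (6325 to 7593 CPM) did not overlap those of Oligo1b (4317 to 6272 CPM). Neighbours at the other steps of this order overlapped. Oligo2c had 1.25 to 1.48 times the Trf level of ARO in the same library and 2.49 to 3.17 times that of Oligo1a.

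**Figure D2:**
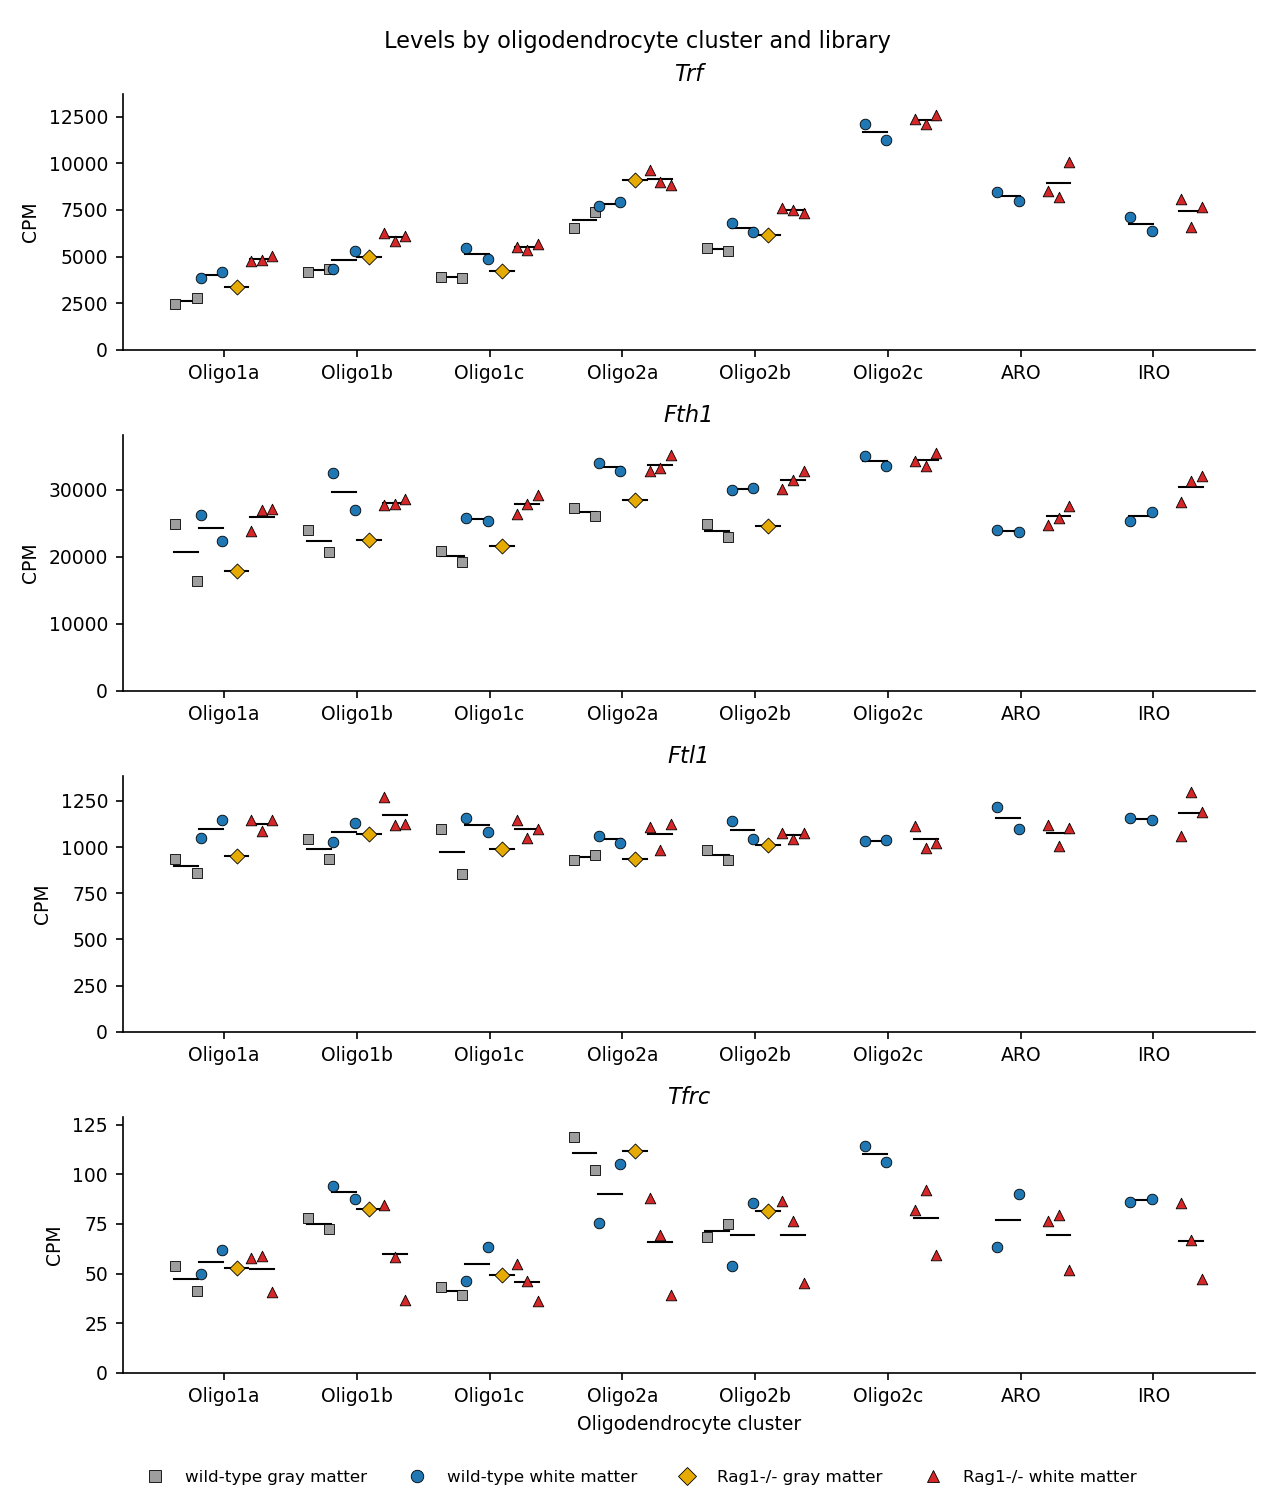
Level of Trf, Fth1, Ftl1 and Tfrc in the 8 oligodendrocyte clusters, in CPM on the y axis (each panel with its own scale); points are libraries in which the cluster had 10 or more cells, marked by genotype and tissue, and lines are group means. Trf is highest in Oligo2c (12078 CPM on average over the white matter libraries) and lowest in Oligo1a (4518 CPM), whereas the means of Ftl1 over the white matter libraries lie between 1039 and 1170 CPM in all 8 clusters.

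Fth1 followed another order at its lower end. Oligo2c (34356 ± 884 CPM) and Oligo2a (33575 ± 995 CPM) led, and their libraries lay above those of Oligo2b (30883 ± 1189 CPM). For Oligo2a the ranges nearly touched, with its lowest library at 32732 CPM and the highest Oligo2b library at 32727 CPM. Oligo1b (28705 ± 2174 CPM), IRO (28662 ± 2881 CPM), Oligo1c (26892 ± 1608 CPM), Oligo1a (25299 ± 2113 CPM) and ARO (25116 ± 1601 CPM) came next, each overlapping its neighbour (SD, n = 5 throughout). By its mean over the 5 libraries ARO was second in transferrin and last in ferritin heavy chain, both by small gaps. Both ranks held in wild-type white matter alone but not in Rag1-/- white matter alone. There ARO was below Oligo2a in Trf (8923 against 9154 CPM) and above Oligo1a in Fth1 (26004 against 25954 CPM).

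The light chain showed no such spread, with means of 1039 (Oligo2c) to 1170 CPM (IRO) and overlap at every step of the order. Tfrc had means of 49.3 CPM in Oligo1c, 53.7 CPM in Oligo1a and 69.5 to 75.5 CPM in Oligo2b, ARO, Oligo1b, IRO and Oligo2a, with 90.9 CPM in Oligo2c, and neighbours overlapped at every step. Slc11a2 had means of 14.4 to 22.0 CPM, also overlapping, and Slc40a1 had at most 6 UMIs in any cluster over the white matter libraries.

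Ftl1 UMIs per 100 Fth1 UMIs ranged from 3.54 to 4.51 over the 8 libraries of oligodendrocytes and from 2.88 to 5.32 over the clusters. Both extremes were in clusters named above, with 2.88 to 3.24 in Oligo2c and 3.76 to 5.32 in Oligo1a. Reads of Ftl1 can match processed copies elsewhere in the genome. The copy listed in the tables, Ftl1-ps1, held UMIs equal to 0.851% of those of Ftl1 in oligodendrocytes, and reads lost to other copies were not counted here.

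The composition of the sums differed between tissues. ARO formed 6.99% to 21.7% of the oligodendrocytes of a white matter library and at most 0.352% in gray matter, and Oligo2c formed 6.19% to 8.48% against at most 0.352%. Oligo1b, on the other hand, formed 25.7% to 43.2% in gray matter and 3.99% to 11.9% in white matter. A level summed over all oligodendrocytes therefore mixes cluster shares with levels, and white matter and gray matter were also compared within the 5 clusters present in both.

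Within each of these 5 clusters Trf and Fth1 were higher on average in wild-type white matter, but no member was called. The genes called were 0.0474% of those tested in Oligo1a, 0.0295% in Oligo1b, 0.247% in Oligo1c, 0.0676% in Oligo2a and 0.154% in Oligo2b. For Trf the log2 fold changes were 0.63 (SE 0.16) in Oligo1a, 0.20 (SE 0.15) in Oligo1b, 0.43 (SE 0.10) in Oligo1c, 0.23 (SE 0.15) in Oligo2a and 0.29 (SE 0.12) in Oligo2b. In Oligo1a, for example, Trf was at 2455 and 2786 CPM in gray matter and 3825 and 4153 CPM in white matter, with no overlap, whereas the Oligo1b levels of 4177 and 4336 CPM in gray matter overlapped the 4317 and 5288 CPM in white matter. The estimate of 0.64 for all oligodendrocytes was thus close to that in Oligo1a and above those in the other 4 clusters.

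**Figure D3:**
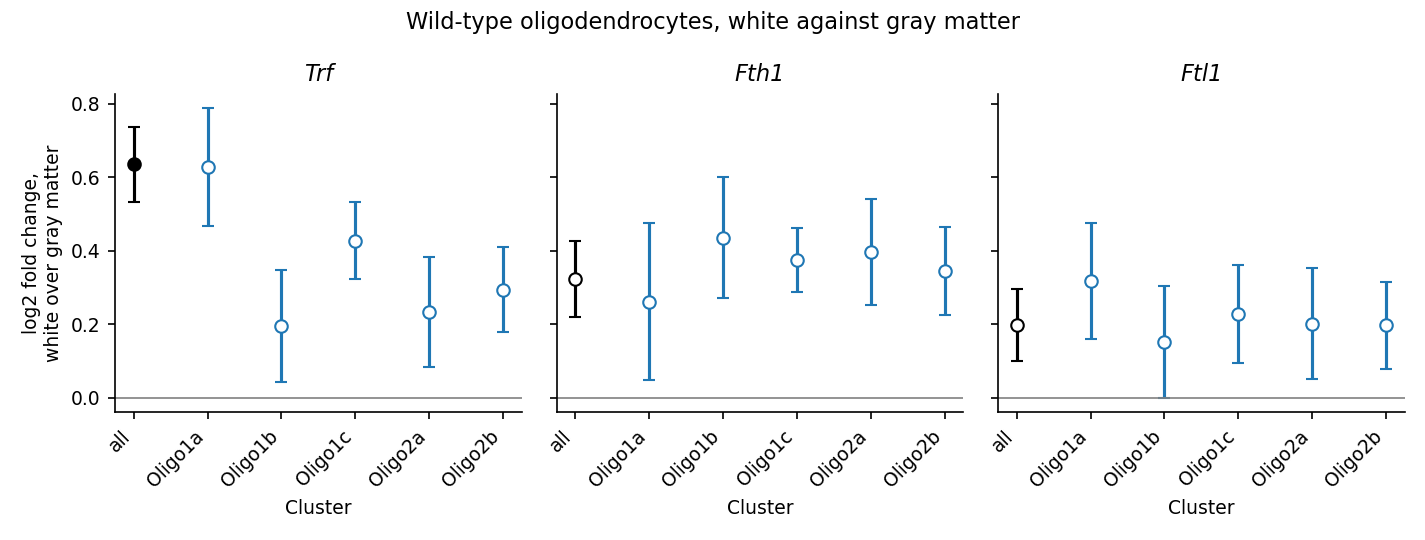
Log2 fold change of wild-type white over gray matter for Trf, Fth1 and Ftl1 (y axis), in all oligodendrocytes and in the 5 clusters with at least 10 cells in every wild-type library; points are edgeR estimates, filled where called, and bars are standard errors. All 6 estimates lie above 0 for Trf (0.20 to 0.64), Fth1 (0.26 to 0.44) and Ftl1 (0.15 to 0.32).

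For Fth1 the log2 fold changes within clusters were 0.26 (SE 0.21) in Oligo1a, 0.44 (SE 0.16) in Oligo1b, 0.37 (SE 0.09) in Oligo1c, 0.40 (SE 0.14) in Oligo2a and 0.34 (SE 0.12) in Oligo2b. These lay above the estimate for all oligodendrocytes (0.32) except in Oligo1a. With the pool of mice as a block edgeR called Trf in Oligo1a (adjusted p = 0.00014), Oligo1c (0.000138) and Oligo2b (0.0168), and Fth1 in Oligo1c (3.48e-05) and Oligo2b (0.00127), and this fit called 1.18%, 2.36% and 2.13% of the genes in these 3 clusters. The smallest unit was 11 cells (Oligo2a in wild-type gray matter 1).

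Between genotypes no member was called within any of the 8 clusters in white matter, where the genes called were 0.730% of those tested in Oligo1a, 0.571% in Oligo1b, 0.920% in Oligo1c, 0.850% in Oligo2a, 0.870% in Oligo2b, 0.891% in Oligo2c, 0.990% in ARO and 0.794% in IRO. Trf had a log2 fold change above 0 in each cluster, from 0.12 in Oligo2c to 0.37 in Oligo1b, and Tfrc had one below 0 in each, from -0.08 to -0.60. The clusters share their libraries, so these repeated signs are not independent of each other. For Tfrc each of them includes Rag1-/- white matter 3, the lowest white matter library in every cluster. The mean CPM of Tfrc in Oligo2b was 69.5 in both genotypes, and in the other clusters it was lower in Rag1-/- mice.

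The genes whose pattern was most like that of a member were found over 52 units (a cluster in a library with at least 30 cells) among 7900 genes, by Pearson's r of log2(CPM + 1). This is a description over units that share libraries and depth. Klk6, a secreted protease, Lbh and Ermn, a cytoskeletal protein of myelinating oligodendrocytes, were most like Trf (r = 0.91 each). Tmem117 (0.91) and Tppp3, a tubulin-binding protein gene (0.88), were among the genes most like Fth1. For Trf and Fth1 themselves r was 0.74, and for Trf and Ftl1 it was 0.27. Ftl1 was most like Gabarap, Clta and Dynlt3 (0.66, 0.65 and 0.64), Tfrc like Galnt7, Ak3 and Dgki (0.76, 0.76 and 0.69), and Slc11a2 like Endog, Cers5 and Ppp1r15a (0.66, 0.59 and 0.59). The few UMIs of Slc40a1 went with those of Cst3 (0.69).

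In microglia of the Rag1-/- mice 4 of the 6 members differed between tissues. Both ferritin chains and DMT1 were higher in white matter and ferroportin was lower. The calls of DMT1 and of the light chain were lost in other fits, which are given with each gene. The 3 white matter libraries were compared with the single gray matter library, to which the test assigns their spread. White matter 2 and 3 are of another batch than that library, and white matter 1 is of the same batch. Of the 12050 genes tested 417 (3.46%) were called, 355 higher (2.95%) and 62 lower (0.515%) in white matter, and these members were among them. With scaling by total UMIs alone the split was 217 higher and 231 lower, and the median log2 fold change of all genes moved from 0.02 to -0.22. The fold changes below carry the TMM scaling of edgeR (trimmed mean of M values, which equalizes most genes between libraries), so their log2 values lie above those of the plain CPM ratios, for higher and lower genes alike.

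Fth1 was at 3117 CPM in gray matter microglia and 7099, 6674 and 7522 CPM in white matter microglia. Each white matter library was more than 2 times the gray matter library, including the one from the same pool (7099 CPM). The log2 fold change was 1.42 (SE 0.12, 2.68-fold, 95% interval 2.29 to 3.14, adjusted p = 0.00124 by edgeR). Ftl1 was at 1829 CPM in gray matter and 3282, 2778 and 2776 CPM in white matter, a log2 fold change of 0.92 (SE 0.14, 1.90-fold, interval 1.57 to 2.29, adjusted p = 0.0137 by edgeR). The estimate for the light chain was smaller than that for the heavy chain, and the difference between the genes was not tested. Without Rag1-/- white matter 2 the adjusted p of Ftl1 was 0.058.

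Slc40a1, through which macrophages release iron, was at 171 CPM in gray matter microglia and 72.6, 83.3 and 71.2 CPM in white matter microglia. It was the only member that was lower in white matter, in all 3 libraries, with a log2 fold change of -0.95 (SE 0.13, 1.93-fold lower, adjusted p = 0.0105 by edgeR). Unlike in oligodendrocytes, where its level was at most 2.56 CPM, the exporter was well detected in microglia.

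Slc11a2 was at 16.9 CPM in gray matter and 25.6, 27.4 and 25.2 CPM in white matter microglia, with no overlap and a log2 fold change of 0.86 (SE 0.18). Its adjusted p of 0.0488 by edgeR lay just inside the threshold of 0.05, and it was 0.0802 by DESeq2, 0.052 with median-of-ratios scaling, 0.097 without TMM scaling, 0.055 without cells of the border macrophage class, 0.18 without Rag1-/- white matter 2 and 0.10 without Rag1-/- white matter 3. Tfrc was at 9.2 CPM in gray matter and 10.4, 14.8 and 10.4 CPM in white matter, a difference of 0.58 on the log2 scale (SE 0.29, adjusted p = 0.39 by edgeR). The importer and the receptor were thus low next to ferritin in CPM, and the receptor did not pass the test.

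Trf was at 924 CPM in gray matter and 1103, 1282 and 1295 CPM in white matter microglia. The log2 fold change of 0.64 (SE 0.14) had an adjusted p of 0.0554 by edgeR. It was called by DESeq2 (0.0020, with 4.74% of the genes called) and by edgeR with no filter on low counts (0.030, with 3.63%). With the pool as a block its adjusted p was 0.0020 by edgeR, with 11.1% called, but that estimate rests on 1 library of each tissue and has no replicate. RNA of oligodendrocytes can reach droplets of other cells, so the level in microglia was set against that in oligodendrocytes of the same library. Trf in microglia was 17.7% of its oligodendrocyte level in the gray matter library and 14.7%, 18.2% and 16.6% in the white matter libraries. The 8 oligodendrocyte markers had medians of 0.800%, 0.753%, 1.64% and 3.06% in the same libraries, and the highest of them lay at 1.97% to 5.45%. The part of oligodendrocyte RNA in the microglial levels of Trf and Fth1 was not tested.

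**Figure D4:**
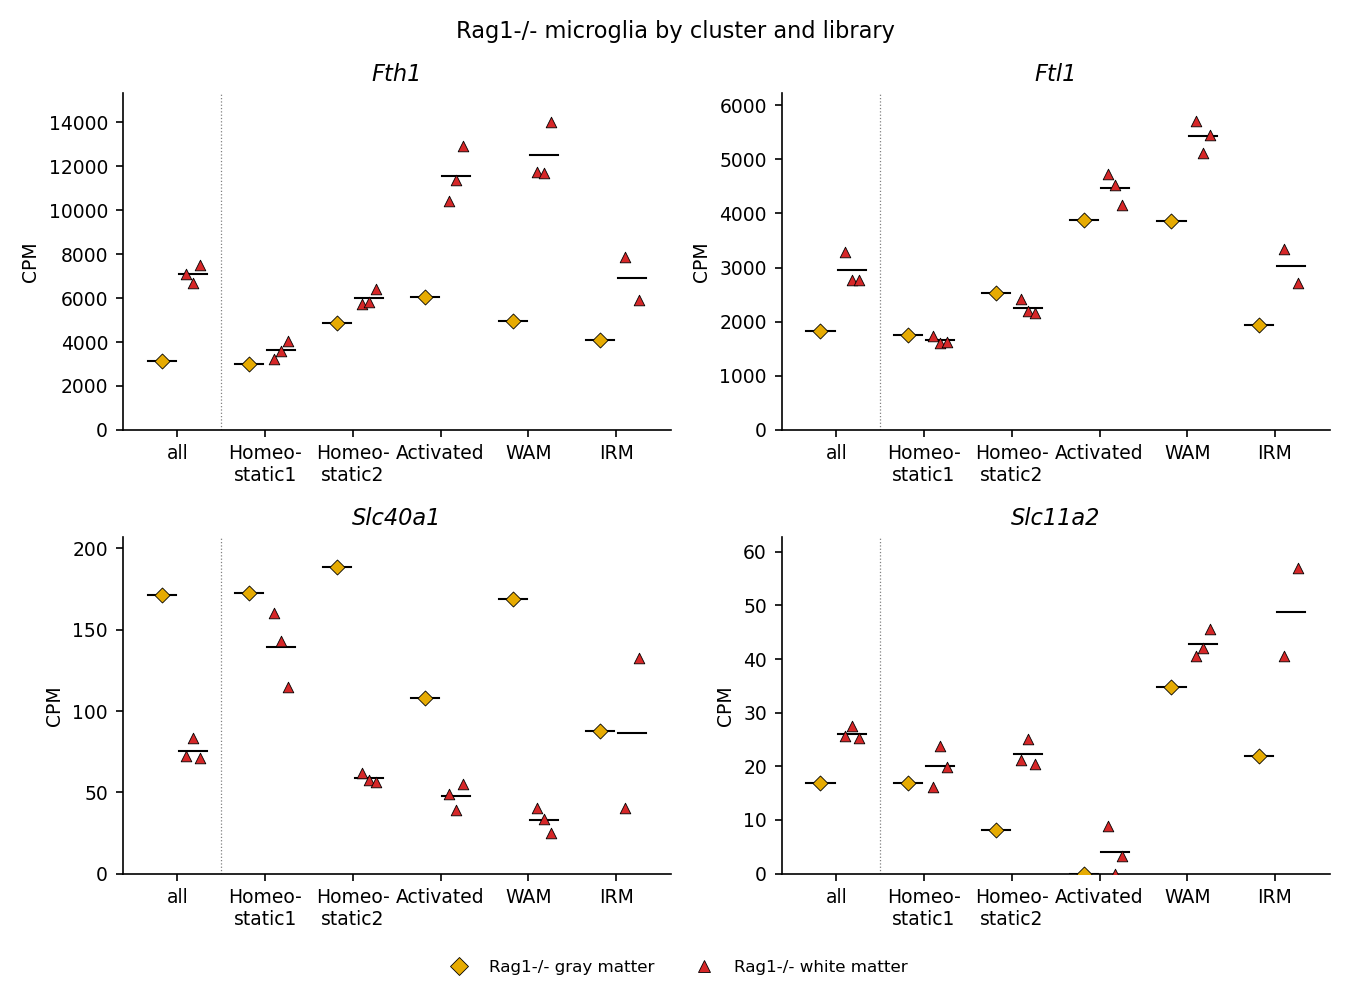
Level of Fth1, Ftl1, Slc40a1 and Slc11a2 in all Rag1-/- microglia and in their 5 clusters, in CPM on the y axis (each panel with its own scale); points are libraries with at least 10 cells, marked by tissue, and lines are group means. Fth1 averages 12502 CPM in white matter WAM and 3626 CPM in white matter Homeostatic1, and Slc40a1 runs in the opposite order, with 32.9 and 139 CPM.

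The microglia clusters differed in the same genes, again as a description with no test. Over the white matter libraries Fth1 averaged 12502 ± 1331 CPM in WAM and 11569 ± 1278 CPM in Activated microglia, whose libraries overlapped, and 5987 ± 364 CPM in Homeostatic2 and 3626 ± 400 CPM in Homeostatic1, which lay apart from each other (SD, n = 3). IRM, with 2 white matter libraries of at least 10 cells, had 6895 CPM. Ftl1 had the same order, with 5433 ± 295 CPM in WAM, 4470 ± 296 in Activated, 3031 in IRM, 2256 ± 142 in Homeostatic2 and 1652 ± 74.1 in Homeostatic1. No neighbours overlapped among libraries with at least 10 cells. White matter 3, with 9 IRM cells, was at 1889 CPM of Ftl1 (143 UMIs), below the Homeostatic2 libraries (2151 to 2418 CPM). Its Fth1 level was 10292 CPM, so the place of IRM in both orders is not settled. Slc40a1 was highest in Homeostatic1 (139 ± 23.0 CPM) and lowest in WAM (32.9 ± 7.91 CPM), with Homeostatic2 (58.5 ± 2.71 CPM) and Activated (47.8 ± 8.07 CPM) between them. Of its 2 white matter libraries of at least 10 cells, IRM had 40.5 CPM (11 UMIs) in one and 132.7 CPM (14 UMIs) in the other, so its place in this order is not settled. In white matter, WAM, Activated microglia and also Homeostatic2 thus had more ferritin and less ferroportin mRNA than Homeostatic1. In the gray matter library Slc40a1 did not follow this order. There it was at 173 CPM in Homeostatic1, 169 CPM (34 UMIs) in WAM, 189 CPM (23 UMIs) in Homeostatic2 and 108 CPM (16 UMIs) in Activated microglia.

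Slc11a2 averaged 42.7 ± 2.58 CPM in WAM, 22.2 ± 2.47 CPM in Homeostatic2 and 19.97 ± 3.84 CPM in Homeostatic1. In IRM it was at 40.5 CPM (11 UMIs) and 56.9 CPM (6 UMIs) in the 2 white matter libraries, overlapping WAM, and it was at 4.01 CPM in Activated microglia, where it rests on 6 UMIs. Trf averaged 1137 to 1321 CPM in the other 4 clusters and 898 CPM in IRM. Tfrc averaged 7.18 to 29.2 CPM, and its highest value, in IRM, rests on 8 UMIs.

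Cluster shares differed strongly between the tissues. Homeostatic1 formed 94.3% of the gray matter microglia and 21.7%, 35.1% and 42.3% of the white matter microglia, and WAM formed 1.56% against 22.1%, 17.1% and 17.1%. The tissues were therefore also compared with cells of 1 cluster only, an alternative added after the data were seen. In Homeostatic1 alone Fth1 was at 3005 CPM in gray matter and 3236, 3607 and 4035 CPM in white matter, a log2 fold change of 0.31 (adjusted p = 1 by edgeR), that of Ftl1 was -0.04 and that of Slc40a1 was -0.27. In WAM alone Fth1 was at 4943 CPM in the 27 gray matter cells and 11746, 11721 and 14039 CPM in white matter, a log2 fold change of 1.75 (adjusted p = 0.0016 by edgeR). Ftl1 (0.89, adjusted p = 0.032), Slc40a1 (-1.92, adjusted p = 0.012) and Trf (0.93, adjusted p = 0.044) were also called by edgeR in WAM, with 34 Slc40a1 UMIs in gray matter, and 2.06% of the genes tested were called there. No member was called by edgeR in Homeostatic1, Homeostatic2 or Activated cells alone, where 0.0462%, 0.00966% and 0.109% of the genes were called. The gray matter library had 29 Homeostatic2 and 27 Activated cells. In Homeostatic2 Slc40a1 was nevertheless at 189 CPM (23 UMIs) in gray matter and 61.6, 57.5 and 56.5 CPM in white matter (log2 fold change -1.47), and the log2 fold change of Fth1 was 0.51. In Activated cells Slc40a1 was at 108 CPM (16 UMIs) against 49.2, 39.1 and 55.1 CPM (-0.76), and Fth1 was at 6051 CPM against 10407, 11364 and 12937 CPM (1.37). In Homeostatic1, where gray matter microglia were most numerous, Slc40a1 was at 173 CPM in gray matter and 160, 143 and 115 CPM in white matter. The calls of Fth1, Ftl1 and Slc40a1 in the summed microglia were thus present in WAM alone and absent in Homeostatic1 alone. A missing call does not show that the tissues were alike in that cluster. The part of cluster shares in the summed differences was not tested.

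Markers of other cells differed between these microglia sums too. The 8 border macrophage markers that the choice of cells did not use (Lyve1, Cd163, F13a1, Cbr2, Stab1, Folr2, Clec4n and Ccl24) summed to 207 CPM in gray matter and 87.1 to 99.7 CPM in white matter. Without the cells of the border macrophage class the log2 fold change of Slc40a1 was -0.94 (adjusted p = 0.012 by edgeR). Erythrocyte genes summed to 751 CPM in gray matter and 25.9 to 83.8 CPM in white matter, astrocyte markers to 281 against 144 to 150 CPM, monocyte markers to 15.7 against 5.5 to 7.4 CPM, choroid plexus genes to 22.8 against 59.2 to 99.7 CPM and oligodendrocyte markers to 359 against 396 to 1684 CPM. All 8 microglia markers were detected, with sums of 27002 CPM in gray matter and 19526 to 21479 CPM in white matter. The part of erythrocyte, astrocyte, monocyte and choroid plexus RNA in these differences was not tested.

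The border macrophage class was small, with 13 and 52 cells in wild-type gray matter, 13 and 38 in wild-type white matter, 72 in Rag1-/- gray matter and 95, 35 and 45 in Rag1-/- white matter. Its 8 independent markers summed to 511 to 4981 CPM, and all of them had UMIs in each group. The 8 microglia markers were also high, at 4601 to 17218 CPM, and 55 of the 363 cells were among the deposited microglia and 1 among the oligodendrocytes. All of these were cells of Rag1-/- libraries, since the microglia annotation used here covers no wild-type library of this series. The class thus held macrophage RNA of both kinds, and the name is kept here for the rule that chose the cells. No doublet caller was applied.

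In this class, chosen at 5 UMIs, Fth1 was higher and Slc40a1 was lower in every white matter library than in any gray matter library, but no member passed the test between wild-type tissues. The Rag1-/- tissues were not compared by a test in this class. Fth1 was at 8196 and 6023 CPM in wild-type gray matter, 15482 and 13562 CPM in wild-type white matter, 6713 CPM in Rag1-/- gray matter and 16311, 13005 and 20937 CPM in Rag1-/- white matter. Every white matter library was above every gray matter library. With cells of at least 10 UMIs of the 3 choosing genes this order did not hold, since wild-type white matter 1, then of 5 cells, was at 7098 CPM and wild-type gray matter 1, of 7 cells, at 7282 CPM. Oligodendrocyte markers moved with tissue in the Rag1-/- libraries of this class, with medians of 0.847% of their oligodendrocyte level in gray matter against 8.94%, 9.92% and 9.85% in white matter. The wild-type libraries overlapped, with 3.33% and 9.58% for gray matter against 2.37% and 7.09% for white matter. Their part in the Fth1 levels was not tested. The wild-type log2 fold change was 1.31 (SE 0.51, 2.48-fold, 95% interval 1.24 to 4.95, adjusted p = 0.319 by edgeR), in a comparison in which 128 of 7612 genes (1.68%) were called. With the pool as a block Fth1 was called (adjusted p = 0.0256), as were 3.02% of the genes.

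Ftl1 was at 3820 and 2266 CPM in wild-type gray matter and 6269 and 4534 CPM in wild-type white matter, without overlap (log2 fold change 1.12, SE 0.47, adjusted p = 0.384 by edgeR). At 10 UMIs wild-type white matter 1 was at 3422 CPM of Ftl1 instead of 6269 CPM. In Rag1-/- mice the gray matter library (5287 CPM) lay close to the lowest of the white matter libraries (6334, 5303 and 6487 CPM). Without the cells that are also in the microglia or oligodendrocyte annotation its order turned, with 5535 CPM in gray matter and 5405, 5346 and 4465 CPM in white matter. Slc40a1 was at 151 CPM (9 UMIs) and 143 CPM (118 UMIs) in wild-type gray matter, 15.6 CPM (2 UMIs) and 63.7 CPM (41 UMIs) in wild-type white matter, 154 CPM (57 UMIs) in Rag1-/- gray matter and 53.8 (35 UMIs), 47.3 (7 UMIs) and 15.9 CPM (5 UMIs) in Rag1-/- white matter. The 5 white matter libraries were all below the 3 gray matter libraries. Since 1 library held 2 UMIs, under the floor of 3, no fold change is given, and the wild-type difference did not pass the test (adjusted p = 0.282 by edgeR).

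Trf was at 1515 and 1108 CPM in wild-type gray matter, 1199 and 1131 CPM in wild-type white matter, 1073 CPM in Rag1-/- gray matter and 1521, 1446 and 2122 CPM in Rag1-/- white matter. The wild-type tissues overlapped, with a log2 fold change of 0.12 that became -0.16 without TMM scaling. Trf stood at 16.7% to 34.8% of its oligodendrocyte level, beside the markers' medians given above. Slc11a2 rested on 1 to 25 UMIs and Tfrc on 1 to 26 UMIs per library. Neither passed the test between wild-type tissues (adjusted p = 0.347 and 0.697 by edgeR).

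Between genotypes in white matter no member of the class was called, where 75 genes (0.985%) were called. Trf had the largest ratio of the better counted members, 1.54 (95% interval 0.92 to 2.58, adjusted p = 0.951 by edgeR), followed by Fth1 (1.21, 0.65 to 2.26) and Ftl1 (1.16, 0.65 to 2.05). The direction of both ferritin chains turned without the cells that are also in the other annotations, with log2 fold changes of -0.21 for Fth1 and -0.15 for Ftl1. That filter removed cells from Rag1-/- libraries only, leaving 62, 30 and 33 cells in white matter. Wild-type white matter kept its 13 and 38 cells, so filtered libraries were set against unfiltered ones. For Slc40a1 no ratio is given because of the 2 UMIs in wild-type white matter 1, and its fitted direction turned without wild-type white matter 2. These intervals are not adjusted for the number of genes and do not mark a limit of detection. A member that was not called may still differ.

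The 3 classes differed in the balance of the ferritin chains. Ftl1 UMIs per 100 Fth1 UMIs were 3.54 to 4.51 in oligodendrocytes, 36.9 to 58.7 in microglia and 31.0 to 78.8 in border macrophages. The ranges of oligodendrocytes and of the other classes did not overlap in any library or cluster. In microglia the gray matter library had the highest value (58.7) and the white matter libraries had 46.2, 41.6 and 36.9. Among border macrophages Rag1-/- gray matter was highest (78.8) and Rag1-/- white matter had 38.8, 40.8 and 31.0. The wild-type tissues of that class overlapped. Wild-type gray matter 1 had 46.6 beside 40.5 for white matter 1, and gray matter 2 had 37.6 beside 33.4 for white matter 2. Oligodendrocyte markers moved with tissue in the Rag1-/- border macrophages, as given above, and their part in these ratios was not tested. Ftl1-ps1 UMIs were 0.617% of those of Ftl1 in microglia and 0.733% in border macrophages.

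**Figure D5:**
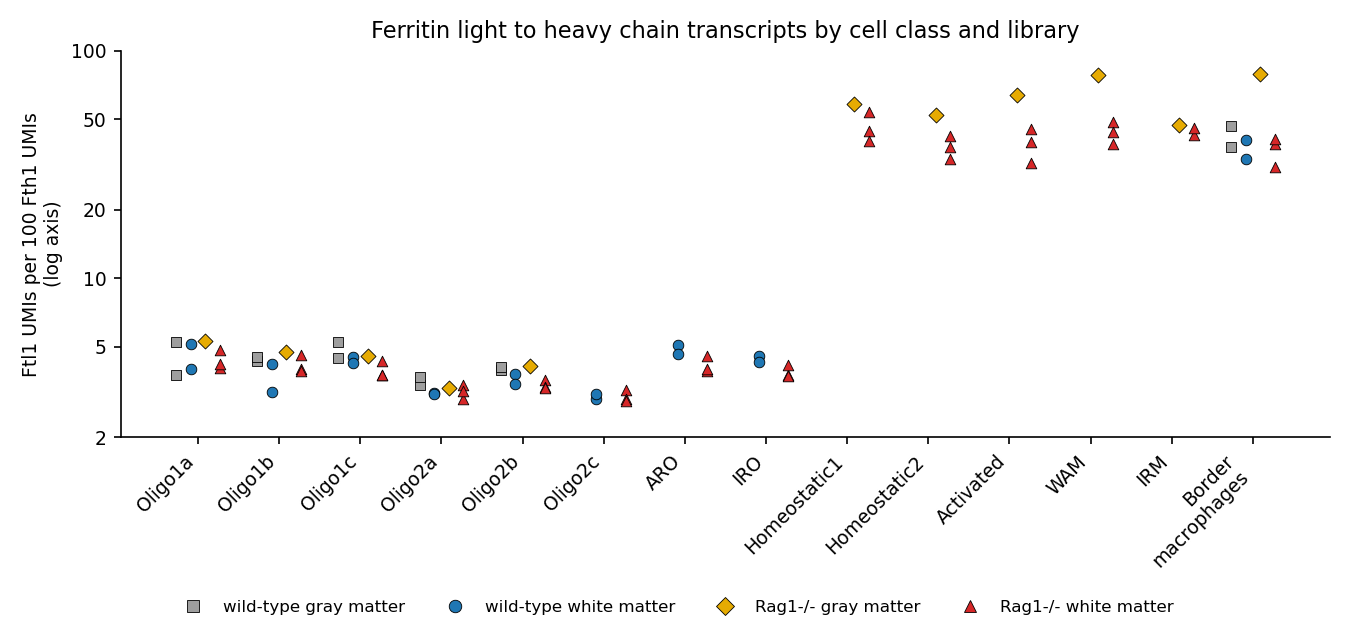
Ftl1 UMIs per 100 Fth1 UMIs (log y axis) in the 8 oligodendrocyte clusters, the 5 clusters of Rag1-/- microglia and the border macrophages; points are libraries, marked by genotype and tissue. Oligodendrocyte clusters lie between 2.88 and 5.32, microglia clusters between 32.1 and 78.3 and border macrophages between 31.0 and 78.8.

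The other genes of iron handling were taken as a list of 49 genes in 6 roles, of which 39 were in the tables. In oligodendrocytes 30 could be tested. Between wild-type tissues 1 was called higher in white matter and 0 lower, where 1.00% of all genes tested were called, and the median log2 fold change of the list was 0.02, beside -0.01 for all genes. The called gene was Steap3, which reduces iron in the endosome before DMT1 moves it. It had 0 and 3 UMIs in wild-type gray matter and 25 and 213 UMIs in wild-type white matter, or 0 and 0.240 CPM against 4.19 and 4.86 CPM (adjusted p = 0.0216 by edgeR). In Rag1-/- mice its counts were 2 UMIs in the gray matter library and 49, 19 and 67 UMIs in the white matter libraries. With so few gray matter UMIs no fold change is given, and the call was lost without wild-type gray matter 1 (adjusted p = 0.076), gray matter 2 (0.24) or white matter 2 (0.14).

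None of the 30 genes was called by edgeR between Rag1-/- tissues or between genotypes in white matter, where 0.436% and 0.911% of all genes were called. Counts of 1 or 0 genes in a list of this size are near these shares and set the list apart in no comparison. The list genes of highest level in oligodendrocytes were Slc48a1, a heme transporter (543 ± 36.4 CPM over 8 libraries), and the iron chaperones Pcbp2 (335 ± 29.3 CPM) and Pcbp1 (227 ± 16.5 CPM).

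In microglia 27 list genes were tested, and 1 was called higher and 0 lower in white matter, near the shares of 2.95% and 0.515% over all genes. Their median log2 fold change was 0.04, beside 0.02 for all genes. The called gene was Cp (ceruloplasmin), the ferroxidase that works with ferroportin. It was at 1.25 CPM (13 UMIs) in gray matter and 6.54, 6.23 and 7.04 CPM in white matter, or 2.63 on the log2 scale (SE 0.41, adjusted p = 0.0144 by edgeR). Its adjusted p was 0.054 without Rag1-/- white matter 2. In Homeostatic2 cells alone the direction turned (-1.08 on the log2 scale), on 2 gray matter UMIs. Cp averaged 122 CPM in border macrophages against 5.27 CPM in microglia, and without the cells of that class its log2 fold change was 2.46 (adjusted p = 0.026 by edgeR). Choroid plexus genes were higher in the same white matter sums, as given above, and their part was not tested. The highest list genes were Lrp1, a receptor that takes up heme bound to hemopexin (292 ± 57.9 CPM over 4 libraries), Pcbp2 (228 ± 17.3 CPM) and Pcbp1 (203 ± 36.5 CPM). In border macrophages none of the 27 list genes tested was called by edgeR in either comparison, where 1.68% and 0.985% of all genes were called, and Pcbp2 (264 ± 51.1 CPM), Blvrb, a biliverdin reductase (253 ± 83.0 CPM), and Lrp1 (216 ± 81.8 CPM) were highest.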

How the data were processed

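The deposited tables hold raw UMI counts per gene and cell, made by the authors with Cell Ranger on mm10 (version 4 in the submitters' notes, other versions for other batches in the study's methods). Cells were already filtered by genes, mitochondrial share and UMI limits that differed between experiments. Among all cell types the highest UMIs per cell were 19911 to 19979 in Rag1-/- and 23094 to 49480 in wild-type libraries. The oligodendrocyte counts also held Rag1-/- cells above that limit. Under 20000 UMIs were 1508 of 1632 oligodendrocytes of Rag1-/- white matter 2 and 3761 of 3859 of white matter 3. In Rag1-/- gray matter 1 and white matter 1 all oligodendrocytes were under it. Cluster names were taken from the deposited annotation. The study's methods do not mention doublets, and no caller was run here. The microglia annotation also holds cells of another series, which were not used, and young mice were not analysed here. Groups came from the sample labels.

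UMI counts were summed per library and cell class, after leaving out 2 ribosomal RNA-derived genes (chosen after seeing the data). Sums were tested with edgeR 4.0.16 (filterByExpr, TMM, two-sided quasi-likelihood F test, Benjamini-Hochberg over all genes tested, threshold 0.05), in R 4.3.3, with 1 fit per class over all its libraries, so that groups of 1 or 2 libraries share one estimate of the spread. Units under 10 cells were left out of cluster comparisons. Intervals are 95% and come from the fitted standard errors with a normal quantile, without adjustment for the number of genes. With so few libraries they tend to be too narrow. A count of 3 UMIs was taken as the floor, and it and the SDs cover different things, since the floor covers counting error only. Alternatives were DESeq2 1.42.0, median-of-ratios factors or total UMIs in place of TMM, no filter on low counts, cells under 20000 UMIs, at least 10 UMIs or no cells of other tables for border macrophages, at least 30 cells per unit, each library left out and a replicate block. The block was the batch within a genotype. It pairs gray and white matter libraries of the same pool of mice, as the study's supplement states the pools. It also joins Rag1-/- white matter 2 and 3, which came from 1 mouse each. In wild-type oligodendrocytes deviations of the paired libraries from their group means correlated (r = 0.409 over 13067 genes). In Rag1-/- mice the block rests on 1 pair. The edgeR and DESeq2 fits without a block were run on simulated counts with known changes, for the sums of the 3 classes. The block and the other steps were not tested in this way.

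The 6 genes, the list of 49 iron genes, the markers and the tests were chosen with earlier results of these data known. List genes were named when called and, beside these, the 3 of highest mean CPM in each class; likeness used genes with a mean of at least 10 CPM, and the 3 most alike were named except for genes not reported here. Iron-responsive element matches were read from GENCODE transcripts of GRCm38 (mm10).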

Additional observations from a re-analysis of the deposited data

How the results depend on the processing

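Of 621 values of single genes under an alternative, 557 kept their direction and side of the threshold, 27 fell short of it, 14 passed it and 23 changed sign. A gene called in neither fit counts as having kept its side. Slc40a1 in oligodendrocytes is not among these values, and within clusters only Trf and Fth1 are. The genes called in wild-type tissue (131 in oligodendrocytes) became 282 with DESeq2, 1048 with the replicate block and 2 to 107 when a library was left out, with 2 members called under the block and 0 in each leave-out. In Rag1-/- tissue 57 became 208, 474 with the block, 140 without a filter and 16 to 264, with 1 member under DESeq2 and under the block. Genotype in white matter went from 119 to 195 with DESeq2. The interaction gave 3 with DESeq2, 6 with the block and 0 to 4. Microglia went from 417 to 1339 with the block, 170 to 2899 when a library was left out (2 to 5 members), and to 5, 1, 196 and 5 in Homeostatic1, Homeostatic2, WAM and Activated cells alone, with 0 members in the first, second and last. Wild-type border macrophages went from 128 to 68 with DESeq2, 230 with the block (1 member), 226 without a filter, 52 at 10 UMIs and 57 to 143; their genotype comparison from 75 to 26, 136 without a filter and 176 without cells of other tables. Within clusters the 58 genes called in wild-type tissue became 724 with the block (5 members) and 7 to 111. The cause was not tested. Where a fit leaves out 1 of 2 libraries, the lone one is assumed to vary like the others; the only Rag1-/- gray matter library could not be left out. The block changed no call of a member other than those given beside the results.

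Among the values covered, signs changed for the following. On the log2 scale, with 1 library left out, Slc11a2 in oligodendrocytes ranged from -0.25 to 0.0046 between wild-type tissues (positive without white matter 2), from -0.035 (without white matter 3) to 0.12 between Rag1-/- tissues and from -0.20 to 0.061 between genotypes (0.015 without Rag1-/- white matter 1, 0.061 without wild-type white matter 1). Fth1 between genotypes ranged from -0.019 to 0.27 in Oligo1a and from -0.19 to 0.12 in Oligo1b. In border macrophages Trf ranged from -0.12 to 0.36 between wild-type tissues (below 0 without gray matter 2, and -0.037 without white matter 1), and between genotypes Fth1 from -0.0010 to 0.50, Ftl1 from -0.10 to 0.59, Tfrc from -0.90 to 0.74 and Slc40a1 from -0.64 to 1.26 (1.26 without wild-type white matter 2, 0.14 without Rag1-/- white matter 3). The block gave -0.074 for Slc11a2 between Rag1-/- tissues and -0.020 for the Fth1 interaction. Without TMM Ftl1 between genotypes was -0.011 and Trf in wild-type border macrophages -0.16 (-0.10 at 10 UMIs). Without cells of other tables, a filter that removed Rag1-/- cells only, Fth1 and Ftl1 of border macrophages were -0.21 and -0.15 between genotypes. In microglia Ftl1 was -0.039 in Homeostatic1, and Tfrc -0.93 and Cp -1.08 in Homeostatic2. Border macrophage sums held as few as 59420 UMIs in a library.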
